A study of Mus musculus with 53 samples.

Results

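The regions described here were places in the mouse genome where the transcription factor SOX2 had a peak in nearly every pluripotent library and none in cells that also made GATA6. Peaks of 10 SOX2 CUT&RUN libraries on chromosomes 1 to 19, X and Y were merged wherever they shared at least 1 bp, which gave 39917 regions. Of these, 6952 held peaks of at least 6 of the 7 pluripotent libraries. A region counted as lost when, in addition, none of the 3 libraries of double-positive (DP) cells had a SOX2 peak in it and no GATA6 peak of DP cells or of nEnd cells overlapped it. This left 2968 lost sites, 42.7% of the 6952. For comparison, 1325 of the 6952 were kept sites, with a SOX2 peak in at least 2 of the 3 DP libraries and no GATA6 peak. Lost means only that no peak was called, and both classes were chosen by the measured SOX2 and GATA6 peaks, so SOX2 peaks and their ranks are given as descriptions without a test.

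All libraries came from SGGC, a reporter line of E14JU mouse embryonic stem cells in which SOX2 is fused to GFP and GATA6 to mCherry. CUT&RUN uses an antibody to bring a nuclease to a chromatin protein, and the released DNA is sequenced. The pluripotent libraries were from 2iLIF culture (MEK and GSK3 inhibitors with LIF; clones B9 and B12), from NACL culture (Activin A, a GSK3 inhibitor and LIF; clones B9 and B12) and from SOX2+ cells sorted from KOSR medium (knockout serum replacement; experiments A, A1 and B). DP cells, positive for both reporters, were sorted from the same KOSR experiments, and every KOSR library was of clone B12, so these populations rest on 1 clone. GATA6 was profiled in the 3 DP sorts and in nEnd, a naive endoderm culture (clones B9 and B12). H3K27ac and H3K4me1 had 2 libraries each in 2iLIF, NACL, SOX2+ and nEnd and 1 each in DP cells, and both H3K4me1 libraries of nEnd were of clone B9. Read depth is unknown, and the number of called peaks, between 8203 and 29623 in the pluripotent SOX2 libraries and 4859, 5320 and 1378 in DP experiments A, A1 and B, limits which regions a library can show. The other 2 KOSR histone libraries with conflicting labels entered no comparison.

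SOX2 is a DNA-binding factor of the SOX family that in pluripotent cells works together with OCT4 (Pou5f1), often side by side on one composite element, and with NANOG, ESRRB and KLF factors at enhancers. GATA6 drives primitive endoderm, the extra-embryonic lineage that separates from the epiblast in the blastocyst. H3K4me1 marks enhancers whether poised or active, and H3K27ac marks active enhancers and promoters.

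To show what such sites look like, 120 bp of reference sequence around the position of highest SOX2 signal are printed for the 12 lost sites with the highest ranks, named by the gene with the nearest protein-coding start site. They are on mm10, plus strand. Capitals mark the SOX strings CATTGT and CTTTGT and the OCT string ATGCAAAT, on either strand.
Rerg, chr6:137170296-137170415: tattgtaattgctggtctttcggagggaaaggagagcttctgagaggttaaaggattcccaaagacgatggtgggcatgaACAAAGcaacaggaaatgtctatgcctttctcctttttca
Akap2, chr4:57770366-57770485: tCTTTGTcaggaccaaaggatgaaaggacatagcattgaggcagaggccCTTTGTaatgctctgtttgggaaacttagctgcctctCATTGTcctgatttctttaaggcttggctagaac
Cd180, chr13:102655181-102655300: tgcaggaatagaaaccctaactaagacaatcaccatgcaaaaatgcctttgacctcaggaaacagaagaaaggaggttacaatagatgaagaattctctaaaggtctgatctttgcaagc
Mycn, chr12:12927255-12927374: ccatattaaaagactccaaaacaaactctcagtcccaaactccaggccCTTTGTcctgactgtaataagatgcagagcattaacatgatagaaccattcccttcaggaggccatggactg
Hhipl2, chr1:183513986-183514105: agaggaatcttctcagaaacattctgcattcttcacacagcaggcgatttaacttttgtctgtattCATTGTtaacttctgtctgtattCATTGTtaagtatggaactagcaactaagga
Rab3gap1, chr1:127904885-127905004: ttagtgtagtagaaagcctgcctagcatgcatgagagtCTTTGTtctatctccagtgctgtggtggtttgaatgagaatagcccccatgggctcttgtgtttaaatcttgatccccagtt
Agk, chr6:40333666-40333785: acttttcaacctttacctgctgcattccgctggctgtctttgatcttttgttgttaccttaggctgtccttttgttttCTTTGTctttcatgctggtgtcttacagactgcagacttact
Sdr9c7, chr10:127907630-127907749: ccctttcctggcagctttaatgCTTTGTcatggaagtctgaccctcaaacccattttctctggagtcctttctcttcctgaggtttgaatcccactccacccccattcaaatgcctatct
Gjc1, chr11:102820591-102820710: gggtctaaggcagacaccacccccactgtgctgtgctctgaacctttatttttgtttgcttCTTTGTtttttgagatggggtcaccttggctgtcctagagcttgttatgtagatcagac
St18, chr1:6448979-6449098: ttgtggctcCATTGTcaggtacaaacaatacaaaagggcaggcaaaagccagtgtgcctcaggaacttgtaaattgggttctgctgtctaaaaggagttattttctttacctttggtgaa
Ildr1, chr16:36708123-36708242: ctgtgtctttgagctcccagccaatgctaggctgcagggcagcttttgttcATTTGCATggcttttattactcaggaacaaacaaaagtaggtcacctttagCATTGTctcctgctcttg
Plagl1, chr10:13108154-13108273: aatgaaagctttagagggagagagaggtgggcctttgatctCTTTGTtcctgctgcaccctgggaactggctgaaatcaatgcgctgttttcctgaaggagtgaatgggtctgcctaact
The string CATTGT was in 4 of the 12 windows, those of Akap2, Hhipl2, St18 and Ildr1. With CTTTGT, which was added after seeing the data, 11 held at least 1 string and that of Cd180 held none. In windows of this length CATTGT was in 28.9% of lost sites and 24.6% of all merged SOX2 regions, and any of the strings in 65.4% and 56.5%. The window of Akap2 held 2 copies of CTTTGT and 1 of CATTGT, and that of Hhipl2 held CATTGT 2 times. In the window of Ildr1, an OCT string on the minus strand was followed by a CATTGT on the plus strand. The sites near Rerg, Akap2, Rab3gap1, Agk, Sdr9c7, Ildr1 and Plagl1 lay in introns of protein-coding genes and those near Cd180, Mycn, Hhipl2, Gjc1 and St18 between genes.

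The full composite, in which CATTGT, any base and ATGCAAAT follow each other, occurred within 500 bp at 2 lost sites. Both are printed for that reason, having been chosen after their content was seen, and the capitals take in the composite.
Dusp21, chrX:18014537-18014656: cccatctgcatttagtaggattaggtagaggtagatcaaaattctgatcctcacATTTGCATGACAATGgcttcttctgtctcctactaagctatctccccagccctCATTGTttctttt
Ebf1, chr11:44841863-44841982: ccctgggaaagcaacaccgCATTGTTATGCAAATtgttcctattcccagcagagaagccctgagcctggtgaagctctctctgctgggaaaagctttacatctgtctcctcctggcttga
The site of Dusp21 lay 131260 bp upstream of its start site and that of Ebf1, a transcription factor of B cells and other lineages, lay in an intron 224606 bp downstream. They ranked at median percentiles of 76.4 and 54.5 over the pluripotent libraries, a measure explained with the ranks of all lost sites, and so were not among the strongest. In the Dusp21 window the composite reads on the minus strand.

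SOX2 peaks ranked lower at lost sites than at kept sites in every pluripotent library. Signal cannot be compared between libraries, so each peak was given its percentile of max signal among the peaks of its library, and a region was given the median over the pluripotent libraries. That median was 63.1 over the lost sites, with quartiles of 48.5 and 75.3, and 90.1 over the kept sites, with quartiles of 80.7 and 95.4. The median percentile of lost sites was 60.3 in 2iLIF B9 and 47.2 in 2iLIF B12, against 85.0 and 80.0 for kept sites. For the NACL clones B9 and B12 it was 82.7 and 68.6, against 93.7 and 90.4. SOX2+ cells gave 62.6, 68.6 and 49.1 in experiments A, A1 and B, against 92.1, 93.3 and 87.6. Lost sites therefore sat near the middle of the peaks of 2iLIF B12 and SOX2+ experiment B, the shortest peak lists of those cultures, and above the middle of the others. They were also narrower, with a median width of 556 bp against 704 bp.

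**Figure D1:**
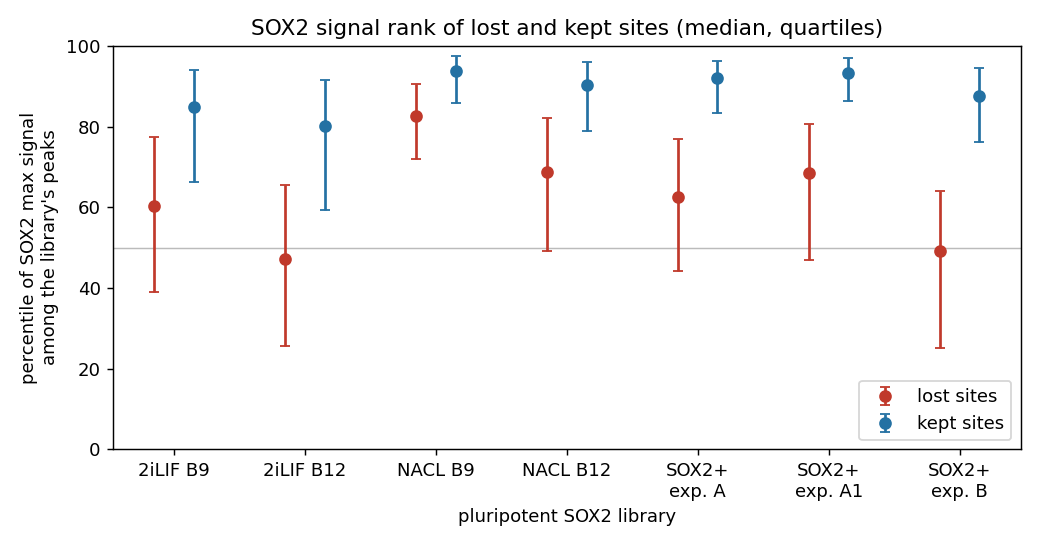
Percentile of SOX2 max signal among the peaks of each of the 7 pluripotent libraries (vertical axis, 0 to 100) for the 2968 lost sites (red) and the 1325 kept sites (blue). Points are medians, bars run from the lower to the upper quartile, and the grey line is the middle of a library's peaks. The red medians lie between 47.2 and 82.7 and the blue ones between 80.0 and 93.7.

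At the edges of the rule the values ran on smoothly. Of the lost sites, 1632 (55.0%) had a peak in 7 of 7 pluripotent libraries and a median percentile of 71.0, while the 1336 with 6 of 7 had 54.6. The library without a peak was 2iLIF B12 in 641 of those 1336 and SOX2+ experiment B in 395. Just outside, 1872 regions with 5 of 7 libraries and neither a DP SOX2 nor a GATA6 peak had a median of 49.2. On the other side of the rule, 873 regions with a SOX2 peak in 1 DP library reached 76.9, and those with a peak in all 3 reached 95.4. A further 283 regions met every condition on SOX2 but overlapped a GATA6 peak of nEnd alone, with a median of 60.

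When those of the 6952 regions without a GATA6 peak were divided into 4 rank bins of 1283 to 1300 regions by their median percentile, lost sites made up 84.2% of the weakest bin (95% Clopper-Pearson interval 82.1 to 86.1), 73.5% of the second, 54.5% of the third and 17.5% of the strongest. Kept sites made up 5.77% of the weakest bin and 64.6% of the strongest. Among the 880 regions at or above the 90th percentile, 98 were lost (11.1%) and 663 were kept. Absence of a DP peak was common in general, at 85.7% of all regions with a peak of any pluripotent library. Holding each pluripotent library to its strongest 5320 peaks, as many as the largest DP list, left 575 lost sites, of which 574 overlapped one of the 2968. At that list length the other lost sites no longer had peaks of 6 pluripotent libraries. The DP lists of 4859 and 1378 peaks were shorter still, and equal list lengths do not equalise read depth, which is unknown. A short DP peak list and less SOX2 bound therefore cannot be told apart at the lost sites. With 1378 peaks, as in the smallest DP list, 10 were left, all among the 2968. They were near Mycn, Adgrl2, Pard6g, Rasgef1b, the zinc-finger gene Zfp281, Rbbp7, which encodes a histone-binding subunit of chromatin complexes, Tex13c2, Inpp4b, Erc2 and Lta4h, with median percentiles from 92.2 to 96.7 in the full lists. They are named after their values were seen.

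**Figure D2:**
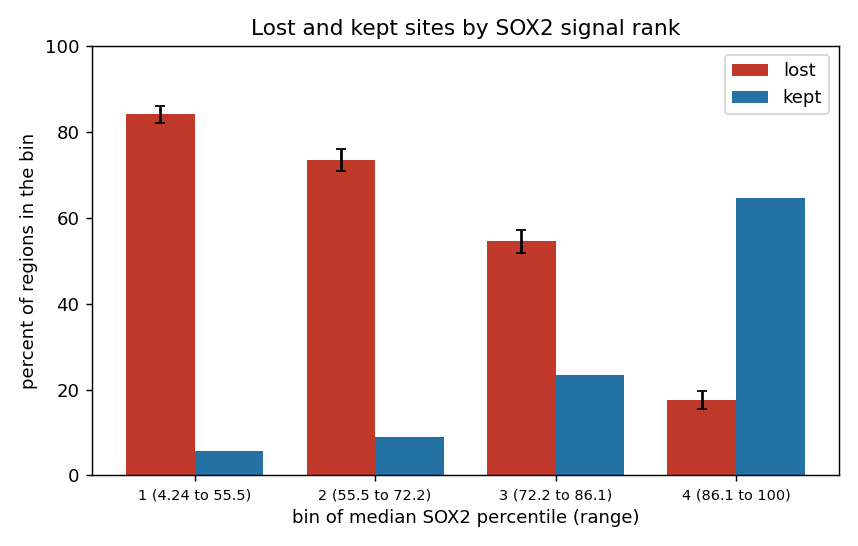
Share of regions that were lost (red, with 95% Clopper-Pearson intervals) or kept (blue) in each of 4 bins of the median SOX2 percentile (horizontal axis, bin number with its range), among regions with peaks of at least 6 pluripotent libraries and no GATA6 peak. Lost sites make up 84.2% of the weakest bin and 17.5% of the strongest.

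The 12 strongest lost sites had median percentiles from 95.2 to 98.7. The highest belonged to Rerg, which encodes a small RAS-like GTPase, and lay in an intron 141 bp downstream of a start site. It ranked at 98.7 and 98.7 in 2iLIF B9 and B12, at 99.9 and 99.3 in NACL, and at 96.7, 91.2 and 86.7 in SOX2+ experiments A, A1 and B, so it stood near the top of every pluripotent list. The nearest SOX2 peak of any DP library was 169034 bp away.

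Mycn, a MYC family transcription factor expressed in pluripotent cells, had a lost site 13301 bp downstream of its start site. Its percentiles were 89.6 and 86.1 in 2iLIF, 99.1 and 97.4 with NACL and 96.7, 96.9 and 91.4 in SOX2+ cells. It was the only one of the 12 that was still lost with 1378 peaks a library, while 10 of the 12 were with 5320, all but Cd180 and St18. Of the 7 regions near Mycn with peaks of at least 6 pluripotent libraries, 3 were lost and none was kept.

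Some strong sites ranked differently between the lists of the cultures. St18, which encodes a zinc-finger factor, had a lost site at 98.6 and 95.2 in 2iLIF and 99.3 and 97.5 in NACL, but at 71.0, 60 and 16.2 in SOX2+ cells. Cd180, a relative of the Toll-like receptors, showed the same order, with 97.4 and 98.2 in 2iLIF, 97.6 and 97.2 with NACL and 68.5, 60 and 49.1 in SOX2+ cells. The opposite order was seen at Hhipl2, at 66.3 and 37.2 in 2iLIF against 96.4, 98.7 and 96.5 in SOX2+ cells, with 95.9 and 99.1 in NACL. At Rab3gap1, a subunit of the RAB3 GTPase-activating complex, 2iLIF gave 52.7 and 59.3 and SOX2+ cells 96.9, 97.5 and 88.5. In each of these 4 sites the 2iLIF and SOX2+ values did not overlap. The other 6 were 11754 bp from the start site of Akap2, which anchors protein kinase A, 8554 bp from that of the mitochondrial lipid kinase Agk, 9172 bp from the dehydrogenase Sdr9c7, 951 bp from the connexin Gjc1, 14145 bp from the tight junction protein Ildr1 and 5251 bp from the imprinted zinc-finger gene Plagl1. In all, both 2iLIF values lay above all 3 SOX2+ values at 8 of the 12 sites, below them at 3, near Mycn, Hhipl2 and Rab3gap1, and overlapped them at 1, near Gjc1. The 8 include Agk, at 98.3 and 98.1 in 2iLIF against 71, 83.8 and 67.7 in SOX2+ cells, and Sdr9c7, at 96.6 and 97.5 against 85.4, 74.5 and 59.7.

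Over the 1632 lost sites with a peak in all pluripotent libraries, both 2iLIF percentiles lay above all 3 SOX2+ percentiles at 290 (17.8%) and below them at 354 (21.7%). Among the 1224 such kept sites the numbers were 105 (8.58%) and 598 (48.9%), and over all 4904 regions with peaks of these libraries the shares were 12.8% and 36.0%. The widest gaps in the first direction were near Sp5, a Wnt target gene, at 99.2 and 96.6 in 2iLIF against 29, 28.1 and 16.2 in SOX2+ cells, near Htr4, a serotonin receptor, and near Jarid2, a subunit associated with Polycomb repressive complex 2. In the other direction they were near Cyp46a1, a cholesterol hydroxylase, at 0.565 and 4.78 in 2iLIF against 89.1, 85.1 and 71.1, near Pet2 and near Sntg1. These genes were chosen after their values were seen. A percentile also depends on the other peaks of its list, and the lists held 13177 and 8203 peaks in 2iLIF and 16819, 20609 and 10513 in SOX2+ cells. The SOX2+ libraries were of clone B12 only, and those of 2iLIF of B9 and B12. The part of list length and clone in these orders was not tested.

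H3K4me1, which the choice of sites did not use, also differed between the 290 and the 354 lost sites of opposite rank order. Where SOX2 ranked higher in 2iLIF, H3K4me1 peaks of 2iLIF overlapped 68.6% of sites in B9 and 88.3% in B12, and those of NACL 57.6% and 56.2%. Where SOX2 ranked higher in SOX2+ cells, the shares were 47.2% and 74.3% in 2iLIF and 35.0% and 34.7% in NACL. The order was the opposite in the H3K4me1 libraries of SOX2+ cells, with 73.8% and 77.6% of the former sites and 82.2% and 86.4% of the latter. H3K27ac followed the same pattern in 2iLIF, at 93.4% and 94.8% against 82.5% and 85.9%, and in SOX2+ cells, at 13.4% and 13.4% against 25.1% and 26.6%. Since sites do not stand in for replicates, these shares went untested. Marks were not counted by rank order at kept sites or over all merged SOX2 regions. Whether the pattern is special to lost sites therefore cannot be told. Shares over all regions, not split by rank order, are given with the marks further on.

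Lost sites were mostly far from promoters. Their median distance to a protein-coding start site was 36124 bp, compared with 33816 bp for kept sites and 29434 bp for all merged SOX2 regions. A start site lay within 1 kb of 3.37% of lost sites, 2.94% of kept sites and 7.25% of all regions, and 78.7%, 77.0% and 72.2% were more than 10 kb away. Counting the start sites of all genes, 56.2% of lost sites were. Introns held 40.8% of lost sites, exons 1.48% and intergenic sequence 57.7%, close to the 40.1%, 2.64% and 57.3% of all regions. Kept sites had 34%, 1.96% and 64.1%. The nearest SOX2 peak of a DP library was at a median distance of 108126 bp from a lost site, and 12.5% of lost sites had one within 10 kb. The rule bars such a peak from the site itself, and over the 33342 merged regions without a DP SOX2 peak the values were close, at 103705 bp and 13.3%.

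The 2968 lost sites were nearest to 2279 genes, of which 1816 had 1 lost site and 153 had at least 3. Auts2, a neurodevelopmental regulator, and Jarid2 had 7 each. A830018L16Rik, the actin nucleator Cobl and Tbl1xr1, a subunit of NCoR corepressor complexes, had 6 each, and Ebf1 was among 11 genes with 5. Of the 2279 genes, 395 also had a kept site, among them Jarid2 with 2 and Tbl1xr1 with 4. The farthest lost sites of Auts2, Jarid2 and Cobl lay 370303, 382638 and 1054909 bp from their start sites, and the nearest start site need not be the regulated gene.

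By gene lists, the share of lost sites differed from the 42.7% over all 6952 regions in both directions, and no test was made on it. Genes given below with their number of regions were picked from the lists after their values were seen. Around core and naive pluripotency factors, 25 of 81 regions were lost (30.9%) and 21 were kept. At Nanog both regions were kept, at Pou5f1 2 of 3 were kept and 1 was lost, and at Sox2 3 of 9 were lost and 3 kept. All 3 regions of Prdm14, a repressor that guards naive pluripotency, were lost, as were both of Dppa5a, an RNA-binding protein of pluripotent cells, and the 1 region each of Zfp42, known as Rex1, and of Dppa3, a maternal factor that protects DNA methylation. At Klf5 2 of 3 were lost and at Klf4 1 of 5, while both of Klf2 and the 1 region of Esrrb were kept. None of the 6 regions of Sall4 was lost or kept, and 5 of them overlapped a GATA6 peak. The strongest lost site of Prdm14 ranked at 96.6 and 93.7 in 2iLIF clones, 99.4 and 94.1 in those of NACL and 76.9, 54.2 and 54.6 in SOX2+ cells, with no overlap between the 2iLIF and SOX2+ values. The lost site of Pou5f1, 15448 bp upstream of its start site, ranked between 78.4 and 90.8 in all pluripotent libraries, and a SOX2 peak of DP cells lay 2966 bp away.

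Around Wnt pathway and TCF/LEF genes, 15 of 22 regions were lost (68.2%) and 2 were kept, and 9 genes had a lost site. All regions of Sp5 (3), of the receptor Fzd7 (3), of the inhibitor Dkk1 (2) and of Tcf7l1 (2), a repressor that GSK3 inhibition counteracts, were lost. Ctnnb1, which encodes beta-catenin, and the inhibitor Notum had 1 lost region each. The strongest lost site of Tcf7l1 ranked at 82.1 and 72.3 in 2iLIF, 92.3 and 94.8 with NACL and 93.6, 93.7 and 88.5 in SOX2+ cells. The strongest of Sp5 had 99.3 and 97.7 in 2iLIF and 96.4 and 91.6 in NACL, and 37.0, 68.6 and 49.1 in SOX2+ cells. The lost site of Tcf7l2 had no peak in 2iLIF B12 and ranked at 42.8 in B9, against 93.3, 92.3 and 64 in SOX2+ cells. With 5320 peaks a library, 40% of the regions of this list and 17.1% of those of the pluripotency list were lost, beside 20.4% of all regions. With 1378 peaks the order turned, with 0% of the Wnt list and 14.3% of the pluripotency list, beside 1.48% of all regions. Only 10 sites were lost at that length, and the share of the pluripotency list rested on the site near Mycn alone.

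Of the other lists, DNA methylation and chromatin regulators had 19 lost of 44 regions (43.2%). These included all 3 regions of Tet1 and 3 of 4 of Tet2, which encode 5-methylcytosine dioxygenases, 7 of 15 of Jarid2 and both of the histone demethylase Kdm3a. FGF and ERK pathway genes had 12 of 35 (34.3%), with 4 of 9 at Etv5 and 2 of 3 at Fgfr1, while the 1 region of Fgf4 was kept. The lost site of Fgfr2, a receptor also used by primitive endoderm, ranked at 69.9 and 31.5 in 2iLIF and at 84.5, 85.1 and 64 in SOX2+ cells. LIF and STAT3 genes had 4 of 10 (40%), of which 3 were near Il6st, the shared receptor subunit gp130. The strongest of Il6st, 1424 bp upstream of the start site, ranked between 81.7 and 96.0 in the pluripotent libraries.

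Formative and primed epiblast genes had 10 lost of 26 regions (38.5%), including 3 of 4 at Otx2, and Nodal and BMP genes had 6 of 11 (54.5%), with the 1 region each of Lefty1, Lefty2, Smad3 and Skil lost and both of Nodal kept. Primitive endoderm genes had 4 of 14 (28.6%), 1 each at Pdgfra, Hhex, Dab2 and Fgfr2. Trophoblast regulators had 3 of 6 (50%), 2 of them near Gata3. Neural transcription factor genes had 2 of 5 (40%), at Pax6 and Pou3f3. These lists hold few regions, and their shares moved with the rule. With 5320 peaks a library, none of the trophoblast or neural regions and 11.8% of those of DNA methylation and chromatin regulators were lost. Neural genes had 0% with 7 of 7 pluripotent libraries required and 72.7% with 5 of 7, beside 33.3% and 50.4% of all regions.

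H3K27ac peaks covered most lost sites in the defined media. Of the lost sites, 84.9% overlapped an H3K27ac peak of 2iLIF B9 and 86.4% one of 2iLIF B12, while 84.7% did so for NACL B9 and 86.0% for NACL B12. Over all merged SOX2 regions the shares were 70.7%, 75%, 73.0% and 74.6% in the same order. In SOX2+ cells 18.9% were covered in experiment A and 18.9% in B, against 16.9% and 17.3% of all regions. The DP library of experiment A covered 32.4%, against 33.8% of all regions. nEnd covered 11.6% in B9 and 14.2% in B12, against 21.9% and 25.6% of all regions. The rule had taken regions with an nEnd GATA6 peak out of the lost sites, and over the 32786 merged regions without a GATA6 peak the nEnd shares were 13.8% and 16.9%. The 6952 regions with peaks of at least 6 pluripotent libraries, of which the lost sites are a part, had higher shares than the lost sites in every one of these libraries, with 89.0% and 90.1% in 2iLIF, 89.1% and 90.6% with NACL, 31.6% and 33.7% in SOX2+ cells and 52.3% in DP cells. The 4 libraries of 2iLIF and NACL lay far above the other 5. Those 4 held between 210904 and 401853 H3K27ac peaks, those of SOX2+ cells 13514 and 14722, that of DP cells 76260 and those of nEnd 20072 and 21394. Covered length did not follow peak number. It was between 359 and 588 Mb in 2iLIF and NACL, 26.2 and 28.6 Mb in SOX2+ cells, 64.1 Mb in DP cells and 175 and 137 Mb in nEnd. The difference from nEnd with equal peak numbers is given beside its test.

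For H3K4me1, 51.5% of lost sites in 2iLIF B9 and 75.1% in B12 overlapped a peak, against 37.5% and 57.9% of all regions. NACL gave 41.0% and 40.5% in B9 and B12, against 30.5% and 30.1%. In KOSR the shares were 73.9% and 78.4% in SOX2+ experiments A and B and 75.5% in DP experiment A, against 53.9%, 58.2% and 65.3%. These 3 lists were the longest, with 58085, 78354 and 130749 H3K4me1 peaks against 24700 to 52599 in 2iLIF and NACL. In the 2 nEnd libraries, 23.6% and 12.4% were covered, against 28% and 17.9%. The excess over all regions in the pluripotent libraries was shared by the 6952 regions chosen for pluripotent peaks alone, at 52.5% and 75.5% in 2iLIF, 39.8% and 41.4% with NACL and 77.3% and 81.3% in SOX2+ cells. In DP cells these 6952 regions had 84.2%, above the lost sites. In nEnd, merged regions without a GATA6 peak gave 20.9% and 11%, below the lost sites.

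**Figure D3:**
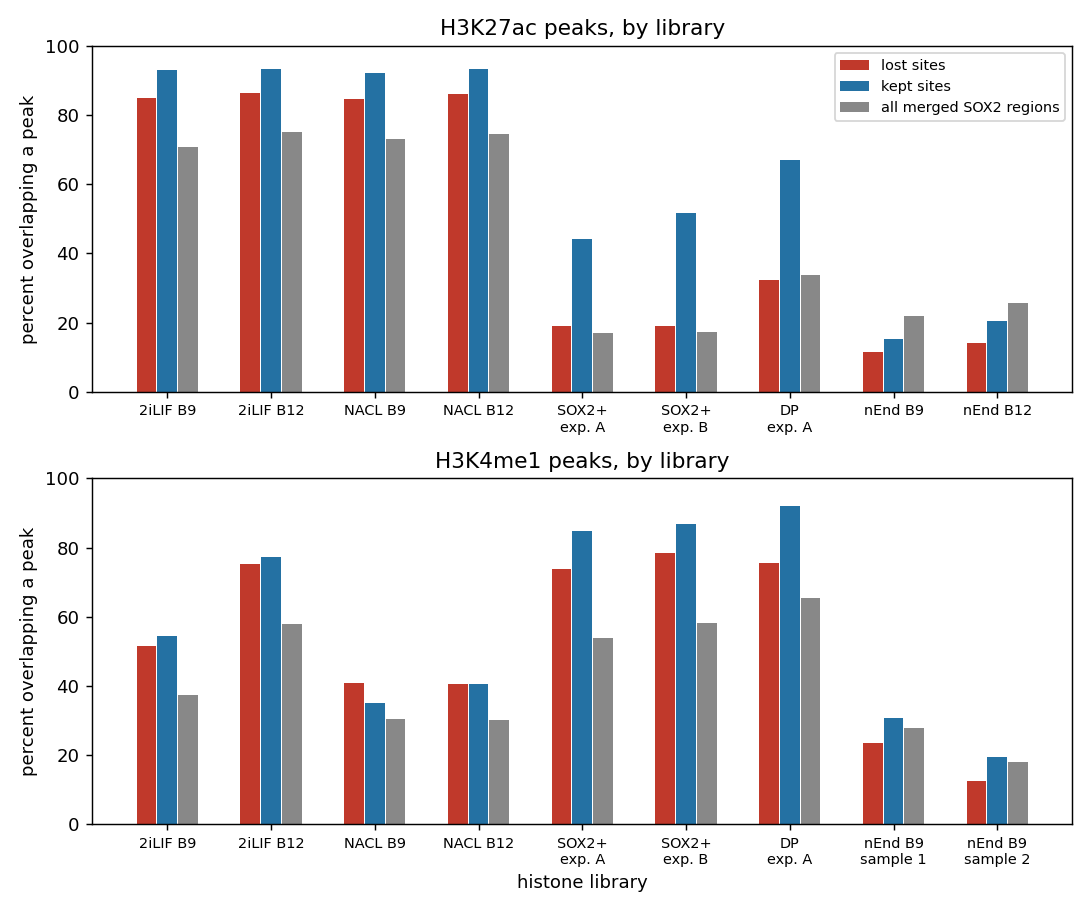
Percent of lost sites (red), kept sites (blue) and all merged SOX2 regions (grey) that overlap an H3K27ac peak (top) or an H3K4me1 peak (bottom) in each histone library, 1 library per set of bars. H3K27ac covers between 84.7% and 86.4% of lost sites in 2iLIF and NACL and at most 32.4% elsewhere.

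Kept sites carried H3K27ac more often than lost sites in every pluripotent library, with 92.9% and 93.3% in 2iLIF, 92.2% and 93.4% with NACL and 44.3% and 51.6% in SOX2+ cells. The within-library difference, lost minus kept, was -14.6 percentage points (SD 11.4, n = 6 libraries) and lay below 0 in 6 of 6. The exact sign-flip permutation test gave p = 0.0312, the smallest that 6 libraries allow (two-sided), and 0.0952 after Benjamini-Hochberg adjustment over 4 tests, which does not pass 0.05. For H3K4me1 the difference was -3.08 points (SD 6.09, n = 6) and was below 0 in 4 of 6 libraries, with both NACL libraries above 0 (exact p = 0.312, adjusted 0.312). Between the cultures, the share of lost sites with H3K27ac was 63.3% ± 34.4 (SD, n = 6) in pluripotent libraries and 12.9% ± 1.86 (n = 2) in nEnd, a difference of 50.4 points (exact permutation p = 0.0714, the smallest possible, adjusted 0.0952). For H3K4me1 the difference was 42.1 points (exact permutation p = 0.0714, adjusted 0.0952), and each pluripotent library lay above both nEnd libraries for both marks. The rule asked for pluripotent SOX2 peaks and no nEnd GATA6 peak, so a difference of this direction was in part built into the choice of sites. The same H3K27ac difference was 60 points at kept sites, 30.9 over all merged SOX2 regions and 37.4 over those without a GATA6 peak, and for H3K4me1 it was 38.1, 21.8 and 28.2 points. With GATA6 peaks ignored in the rule it was 45.2 points for H3K27ac (exact permutation p = 0.214), and the pluripotent and nEnd libraries then overlapped. When every histone list was held to the shortest of its mark, the differences from nEnd were 20.1 points for H3K27ac and 27.1 for H3K4me1, and lost minus kept was -25.2 points for H3K27ac and -6.64 for H3K4me1. This equalised peak number only. Covered length was not held equal, so these are not fully matched comparisons. None of the 4 tests passed 0.05 after adjustment, and none could have at this number of libraries, since the smallest p-values allowed are 0.0312 and 0.0714 and the adjustment is over 4 tests.

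Because lost sites had lower SOX2 ranks, the comparison with kept sites was repeated within the 4 rank bins, a choice made after seeing the data. H3K27ac stayed lower at lost sites, with mean differences of -8.58, -7.15, -10.4 and -12.2 points from the weakest to the strongest bin and below 0 in 6, 5, 6 and 6 of 6 libraries. The sign of the H3K4me1 difference turned, to 4.41, 8.77, 9.87 and 1.81 points, above 0 in 6 of 6 libraries in the lower 3 bins and in 4 of 6 in the strongest. Apart from the SOX2+ libraries of the strongest bin, lost sites thus had H3K4me1 more often than kept sites of the same bin, and apart from 1 NACL library of the second bin they had H3K27ac less often. The bins did not make ranks equal. In the strongest, 98 of 226 lost and 663 of 833 kept sites were at or above the 90th percentile. The 2 weakest bins held only 75 and 114 kept sites. The exact sign-flip p-values for H3K4me1 within bins, adjusted as above, were 0.0625, 0.0714, 0.0625 and 0.594, none of which could have passed 0.05 at this number of libraries. The largest differences for H3K27ac were those of the SOX2+ libraries, down to -32.8 points in the strongest bin. In DP cells both marks were less frequent at lost than at kept sites in every bin, by -30.3 to -36.5 points for H3K27ac and by -8.26 to -13.0 for H3K4me1. The 2 classes were chosen by SOX2 peaks of DP cells, so a difference of this direction may in part be built into the choice.

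**Figure D4:**
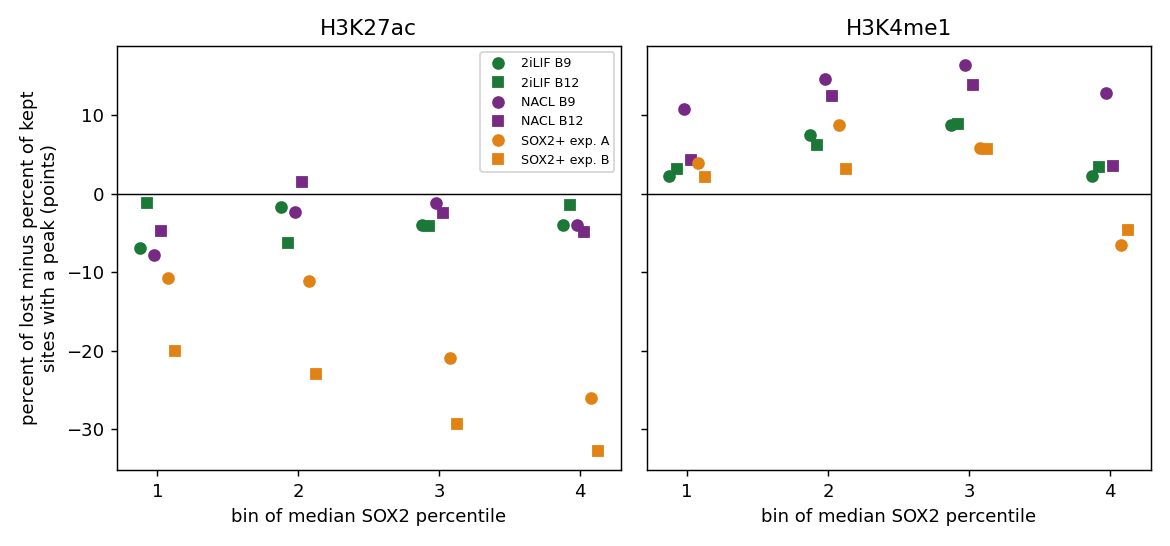
Percent of lost sites minus percent of kept sites with an H3K27ac peak (left) or an H3K4me1 peak (right), in percentage points, within each of 4 bins of the median SOX2 percentile (1 is the weakest). Each point is 1 of 6 pluripotent histone libraries. H3K27ac points lie below 0 except 1 in the second bin, and H3K4me1 points lie above 0 except those of SOX2+ cells in the strongest bin.

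Taking libraries together, 57.9% of lost sites had H3K27ac in both libraries of 2iLIF and of NACL and in neither nEnd library, compared with 64.6% of kept sites and 33.6% of all merged SOX2 regions. Both marks in both libraries of 2iLIF and NACL were found at 25.4% of lost sites, 24.2% of kept sites and 17.2% of all regions. H3K27ac was present in both libraries of SOX2+ cells as well at 13.7% of lost sites, near the 12.4% of all regions, and at 38.9% of kept sites. It was absent from both SOX2+ libraries, though present throughout 2iLIF and NACL, at 47.8% of lost sites, 34.7% of all regions and 30.3% of kept sites. These patterns moved with the length of the lists. With every H3K27ac list held to 13514 peaks, the latter was found at 6.44% of lost sites, 4.44% of all regions and 6.11% of kept sites, and H3K27ac in both libraries of 2iLIF, NACL and SOX2+ cells at 10.5%, 9.36% and 30.8%. H3K27ac throughout 2iLIF and NACL and in neither nEnd library was then found at 15.1% of lost sites, 7.96% of all regions and 30.5% of kept sites. No nEnd library had either mark at 71.3% of lost sites, 62.6% of kept sites and 61.8% of all regions, the last of which include those with GATA6 peaks. Only 2.29% of lost sites, and 7.52% of all regions, had neither mark in any pluripotent library.

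DP cells could be set beside SOX2+ cells of the same sort only in experiment A, with 1 library of each mark and no test. With all peaks, the share of lost sites with H3K27ac was 18.9% in SOX2+ and 32.4% in DP cells, and with H3K4me1 73.9% and 75.5%. The DP lists were longer, and the direction depended on that. When both were held to equal numbers by max signal, 13514 for H3K27ac and 58085 for H3K4me1, H3K27ac went from 18.9% to 12.3% at lost sites, from 44.3% to 42.5% at kept sites and from 16.9% to 16.8% over all regions. H3K4me1 then went from 73.9% to 58.1% at lost sites, from 84.8% to 81.7% at kept sites and from 53.9% to 49.6% over all regions. Of the 562 lost sites with H3K27ac in SOX2+ cells, 47.2% kept a peak in DP cells at equal numbers (95% Clopper-Pearson interval 43.0 to 51.4), compared with 72.9% of 587 kept sites (69.1 to 76.5) and 63.8% of all regions so marked. With all peaks these shares were 80.8%, 91.3% and 87.5%. The SOX2+ H3K27ac peaks were weaker at lost sites to begin with, at a median percentile of 61.3 in their library against 81.6 at kept sites, and the part of this in the lower shares was not tested. H3K4me1 without H3K27ac was the most frequent state of lost sites in both populations, at 55.5% in SOX2+ and 44.1% in DP cells with all peaks, against 41.6% and 26% of kept sites. With all peaks, neither mark was found in DP cells at 23.5% of lost sites, 6.94% of kept sites and 32.2% of all merged SOX2 regions. At equal numbers, 46.2% of lost sites had H3K4me1 without H3K27ac in DP cells and 41.5% had neither mark, against 40.6% and 16.9% of kept sites. States at equal numbers were not counted over all regions, nor was H3K4me1 without H3K27ac with all peaks. These shares therefore cannot be read as particular to lost sites.

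All 12 of the strongest lost sites had H3K27ac in both libraries of 2iLIF and of NACL, and H3K4me1 in both SOX2+ libraries and in DP cells, marks that covered between 70.7% and 75% and between 53.9% and 65.3% of all regions in each of those libraries. H3K27ac was also found in DP cells, where it covered 33.8% of all regions, at 3 of the 12, near Rab3gap1, Sdr9c7 and Ildr1, and in both SOX2+ libraries at Mycn and Rab3gap1. In nEnd, Sdr9c7 had H3K27ac in both libraries and Akap2 in 1. The Prdm14 site carried H3K27ac in all 6 pluripotent libraries and in DP cells but in no nEnd library, and that of Tcf7l1 carried both marks in every assigned library. At Sp5, the strongest lost site had H3K27ac in 2iLIF and NACL and in none of the SOX2+, DP and nEnd libraries. The strongest site of Jarid2 had no peak of either mark in SOX2+, DP or nEnd libraries.

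Sequence content was counted as the share of sites with a consensus string within 500 bp centred on the position of highest SOX2 signal, counting matches in either orientation. CATTGT occurred in 46.5% of lost sites (95% Clopper-Pearson interval 44.7 to 48.3, which like the others covers counting error over sites only), 49.3% of kept sites and 42.5% of all merged SOX2 regions. With the second string CTTTGT, added after seeing the data, the shares for either were 83.7%, 85.7% and 78.4%. The OCT string ATGCAAAT was in 9.43% of lost, 7.62% of kept and 7.53% of all regions. The exact composite was in 0.0674% of lost sites (2), 0.0755% of kept sites (1) and 0.0251% of all regions (10). A shorter composite, made of TTGT, any base, ATGC, any base and AA and also added later, was in 2.29% of lost (1.78 to 2.9), 4% of kept (3.01 to 5.20) and 1.34% of all regions.

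The string of the orphan nuclear receptor ESRRB, TCAAGGTCA, differed most in proportion among the 6 strings plotted. It was in 3.30% of lost sites (2.69 to 4.01) and 7.62% of kept sites (6.25 to 9.19), with 3.86% of all regions. In a narrower window of 200 bp the shares were 1.68% and 4%. Within the rank bins it was in 3.93%, 3.29%, 2.41% and 3.10% of lost sites and in 13.3%, 8.77%, 11.2% and 5.64% of kept sites. The KLF string CCACACCC was in 5.46% of lost, 6.57% of kept and 6.54% of all regions, and the NANOG string GCCATTA in 4.72%, 4.83% and 5.10%. AGATAA, the GATA string, was in 21.1% of lost and 24% of kept sites against 27.9% of all regions, but 7.31% and 6.94% in the 200 bp window, and the rule had removed GATA6 peaks from both classes. No share of strings was tested, for the reason given for the marks.

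**Figure D5:**
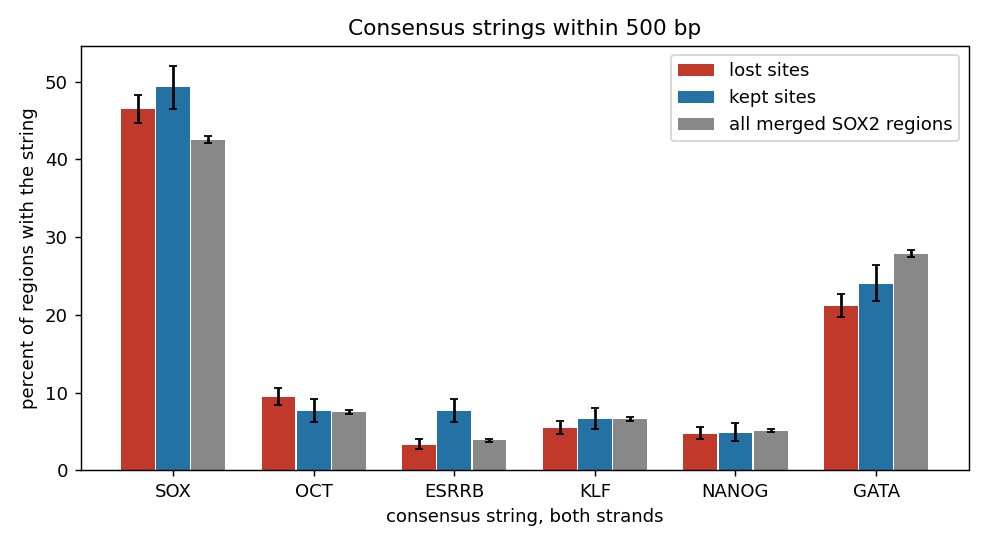
Percent of lost sites (red), kept sites (blue) and all merged SOX2 regions (grey) with each consensus string in either orientation within 500 bp centred on the highest SOX2 signal, with 95% Clopper-Pearson intervals. The ESRRB string is in 3.30% of lost and 7.62% of kept sites, and for the other 5 strings the intervals of lost and kept sites overlap.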

How the data were processed

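CUT&RUN libraries of SOX2 (10), GATA6 (5), H3K27ac and H3K4me1 (10 each) were analysed from 35 peak lists, 33 of which could be assigned to a group. Per the labels' processing notes, the authors used cutadapt 1.18, Bowtie2 2.3.4.1, SAMtools 1.9, Picard 2.9.1, bedtools 2.27.1, deepTools 3.2.0 and SEACR on mm10 (GRCm38). Peaks were called per library against IgG, and replicates were not pooled. The deposited lists give each peak's position, total signal and max signal (coverage as integers, not comparable between libraries), so signal served only for ranks. The names of the deposited lists give SEACR's stringent mode for SOX2 and GATA6 and its relaxed mode for the marks, and the methods give the reverse.

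The members and gene lists were chosen with earlier results of these data known. Overlap meant at least 1 bp. A percentile is the midrank of a peak's max signal among its library's peaks, and the highest was taken where a region held several. The nearest gene came from protein-coding transcript starts of GENCODE M21, and sequence from GRCm38. Named are the 12 strongest members, up to 3 members per gene list and the genes with the most members. Other list genes, named with counts of regions, and all further names were chosen after their values were seen. Shares of marked sites were compared with exact sign-flip and permutation tests over libraries (two-sided, 2 times the smaller tail), with Benjamini-Hochberg adjustment over 4 tests and a threshold of 0.05. The clones pair samples by their labels, and permutation within clone was an alternative. Nothing states whether KOSR experiments were separate cultures, so p-values measure the spread between these libraries. Alternatives were other library numbers, GATA6 peaks ignored, 500 bp windows, fewer SOX2 or histone peaks, other definitions of kept, a 1 kb distance from start sites, a 200 bp window for strings, start sites of all genes and each library left out. Class assignment and tests were tested on simulated data. Python 3.11.15, pandas 2.3.3 and SciPy 1.17.1 were used.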

Additional observations from a re-analysis of the deposited data

Results flagged for a closer look

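The H3K4me1 difference between lost and kept sites had opposite signs in different cultures: both NACL libraries had H3K4me1 more often at lost sites, while both libraries of 2iLIF, of SOX2+ cells and of nEnd had it less often. The mean difference of 2iLIF was -5.65 percentage points from that of NACL, that of SOX2+ cells -12.8 points from it, and that of NACL 10.2 points above that of nEnd. One of the NACL libraries was only 0.0795 points above 0, and these differences between cultures were not tested. Groups of 2 or 3 libraries are too small for a check of single samples that stand apart.

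The 2 experiment B libraries whose title names DP cells and whose source names SOX2+ cells entered no comparison. At lost sites, 18.7% overlapped an H3K27ac peak of one and 73.0% an H3K4me1 peak of the other. At kept sites the shares were 47.5% and 87.2%, and over all merged SOX2 regions 19.2% and 58.1%.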

How the results depend on the processing

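The number of lost sites depended most on the SOX2 lists. It was 1632 with 7 of 7 libraries required, 4840 with 5 of 7, 940 with the stronger 50% of pluripotent peaks, 575 with pluripotent lists held to the largest DP list (chosen after seeing the data) and 10 with the smallest, and between 2992 and 4354 without single SOX2 libraries. Lost sites were nearest to 1375 genes with 7 of 7, 844 with the stronger 50%, 531 and 10 with held lists. Kept sites numbered 2495 with GATA6 peaks ignored, 382 with the smallest list, 586 without DP experiment A and 557 without A1.

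The H3K27ac difference between lost and kept sites and both comparisons with nEnd had the same direction under every alternative run, though not the same size. With GATA6 peaks ignored the H3K27ac difference from nEnd was 45.2 points, and the libraries of both sides overlapped (exact permutation p = 0.214). With histone lists of equal peak number, though not of equal covered length, the differences from nEnd were 20.1 points for H3K27ac and 27.1 for H3K4me1. The H3K27ac difference between lost and kept sites was then -25.2, and with the smallest DP list it was -4.12 (exact sign-flip p = 0.375). No test could pass 0.05 after adjustment, so the p-values say nothing about stability. Without single histone libraries the H3K27ac difference between lost and kept sites lay between -16.2 and -11.0 points, and that of H3K4me1 between -4.91 and -1.50. The H3K4me1 difference turned to 1.70 with the stronger 50% of SOX2 peaks, 3.49 and 1.88 with lists held to the smallest and largest DP list, 1.29 above the median percentile, and 4.41, 8.77, 9.87 and 1.81 within the 4 rank bins. With clone as a replicate block, the differences from nEnd were 50.4 and 42.1 points (exact permutation p = 0.133 and 0.333, the smallest that the pairing allows for H3K27ac and H3K4me1), neither of which could reach 0.05. DP minus SOX2+ in experiment A turned to -20 (smallest DP list) and -6.67 (equal histone lists) for H3K27ac and was 10.4 at the max-signal position. For H3K4me1 it was 0 with 7 of 7 and with the smallest list, -0.426 with the stronger 50%, -3.48 with the largest list and -15.0 with equal histone lists. In a 200 bp window, lost minus kept was -2.32 points for ESRRB and 0.368 for GATA. List shares moved too, as given with the lists. No cause of these shifts was tested.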
